A study of Mus musculus with 32 samples.

Results

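Cells make cholesterol from acetyl-CoA through the mevalonate pathway, and they adjust the supply of its enzymes mainly at transcription. SREBP-2, the product of Srebf2, is made as a membrane protein of the endoplasmic reticulum and is carried by SCAP to the Golgi when sterols are low, where proteases release the part that enters the nucleus and activates the enzyme genes. INSIG proteins hold SCAP back when sterols are high, and Insig1 is itself an SREBP target, so that it serves as a feedback arm. The 7 genes described here were chosen by name, as listed members of this pathway, and are 7 of the 38201 genes in the deposited gene tables. They are Srebf2 (ENSMUSG00000022463) and Insig1 (ENSMUSG00000045294) on the side of control, and 5 enzymes in the order of the pathway: Hmgcs1 (ENSMUSG00000093930, which makes HMG-CoA), Idi1 (ENSMUSG00000058258, which isomerises isopentenyl diphosphate), Fdft1 (ENSMUSG00000021273, squalene synthase), Sqle (ENSMUSG00000022351, squalene epoxidase) and Dhcr7 (ENSMUSG00000058454, which acts at the last step to cholesterol). In mm10 the deposited exon bins place Srebf2 at chr15:82147266-82205376, Insig1 at chr5:28071363-28078662, Hmgcs1 at chr13:119690462-119708086, Idi1 at chr13:8885501-8892451, Sqle at chr15:59315077-59331192 and Dhcr7 at chr7:143823145-143848410 on the plus strand, and Fdft1 at chr14:63145153-63177793 on the minus strand. All 7 passed the filter on low values in both fractions.

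The libraries came from P19, a mouse embryonal carcinoma line, grown in serum and transfected for 36 h with esiRNA, a mixture of short RNAs cut from a long double strand. Knockdown cells received esiRNA against 1 of the 7 SR proteins SRSF1 to SRSF7, which bind RNA in splicing and in later steps of mRNA life, and control cells received esiRNA against GFP. Poly(A)+ RNA was sequenced from whole-cell lysates and from the cytoplasmic fraction, with replicates A and B of each of the 8 groups in each fraction, 32 libraries in all. The study's methods call A and B biological replicates without saying how their cultures were kept apart, so the p-values measure the spread between these libraries. A change in bulk RNA cannot tell a change in the share of cells with a transcript from a change in its level per cell. The values were scaled to a common depth, so they are relative to the other RNA of a library.

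Levels are given as scaled reads, the estimated reads per gene that the authors brought to a common depth within each fraction. Reads recovered from them summed to between 26934297 and 40871486 per whole-cell library and to between 27713472 and 48585381 per cytoplasmic library. Each targeted Srsf gene was lower in its own knockdown, with 48.8% to 68.7% of the GFP mean left in the whole cell (7 of 7 passed) and 37.8% to 77.0% left in the cytoplasm (4 of 7 passed). The 10 P19 markers summed to at least 53910 scaled reads in every library. Liver and pancreas markers stood apart in the cytoplasmic A libraries other than that of SRSF2, with sums of 142 to 218 and 418 to 581 scaled reads, against at most 9.27 and 14.9 in cytoplasmic B libraries and at most 36.5 and 17.3 in the whole cell.

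The stretches upstream of 3 of the genes are shown because their genes had the largest fold changes among whole-cell calls and because SREBP-2 is known to act through such stretches. They are from RefSeq promoters of the build GRCm38.p6 and run from 250 to 51 bases before the RefSeq start on the plus strand. Of the 7 genes, 5 had an entry, and Sqle and Fdft1 are named only. Capitals mark, on either strand, the sterol response element TCACNCCAC, the NF-Y box CCAAT, the Sp1 box GGGCGG and the E-box CACGTG.
Hmgcs1, chr13:119690101-119690300: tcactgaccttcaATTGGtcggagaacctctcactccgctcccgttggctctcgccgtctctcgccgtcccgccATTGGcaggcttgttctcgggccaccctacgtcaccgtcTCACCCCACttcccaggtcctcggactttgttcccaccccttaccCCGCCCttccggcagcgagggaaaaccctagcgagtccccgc
Insig1, chr5:28071162-28071361: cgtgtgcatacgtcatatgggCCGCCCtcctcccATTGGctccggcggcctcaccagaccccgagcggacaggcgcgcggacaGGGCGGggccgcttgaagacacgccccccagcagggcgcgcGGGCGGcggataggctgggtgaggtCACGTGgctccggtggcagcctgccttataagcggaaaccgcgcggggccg
Srebf2, chr15:82147019-82147218: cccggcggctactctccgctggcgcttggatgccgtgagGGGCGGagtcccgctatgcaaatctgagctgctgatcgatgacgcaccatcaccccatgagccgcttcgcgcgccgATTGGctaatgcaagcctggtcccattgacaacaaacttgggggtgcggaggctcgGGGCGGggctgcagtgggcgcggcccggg
In this window Hmgcs1 held TCACNCCAC, 137 bases before the start. Among all 32817 promoter entries, 0.811% held that motif, 28.4% held CCAAT, 24.6% held GGGCGG and 4.34% held CACGTG. Insig1 held CACGTG and CCAAT, Hmgcs1 and Srebf2 held CCAAT, and all 3 held GGGCGG. A match describes the letters of the window and no binding was measured.

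Each of the 7 knockdowns was compared with GFP within each fraction. Fold changes are differences of log2(scaled reads after TMM scaling + 1), knockdown minus GFP, from limma with the replicate letter as a block, and a gene was called at a Benjamini-Hochberg adjusted p below 0.05 over all genes of that comparison. All 7 comparisons of a fraction share the same 2 GFP libraries. They are therefore not independent, and a high or low GFP library would shift all of them together.

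**Figure D1:**
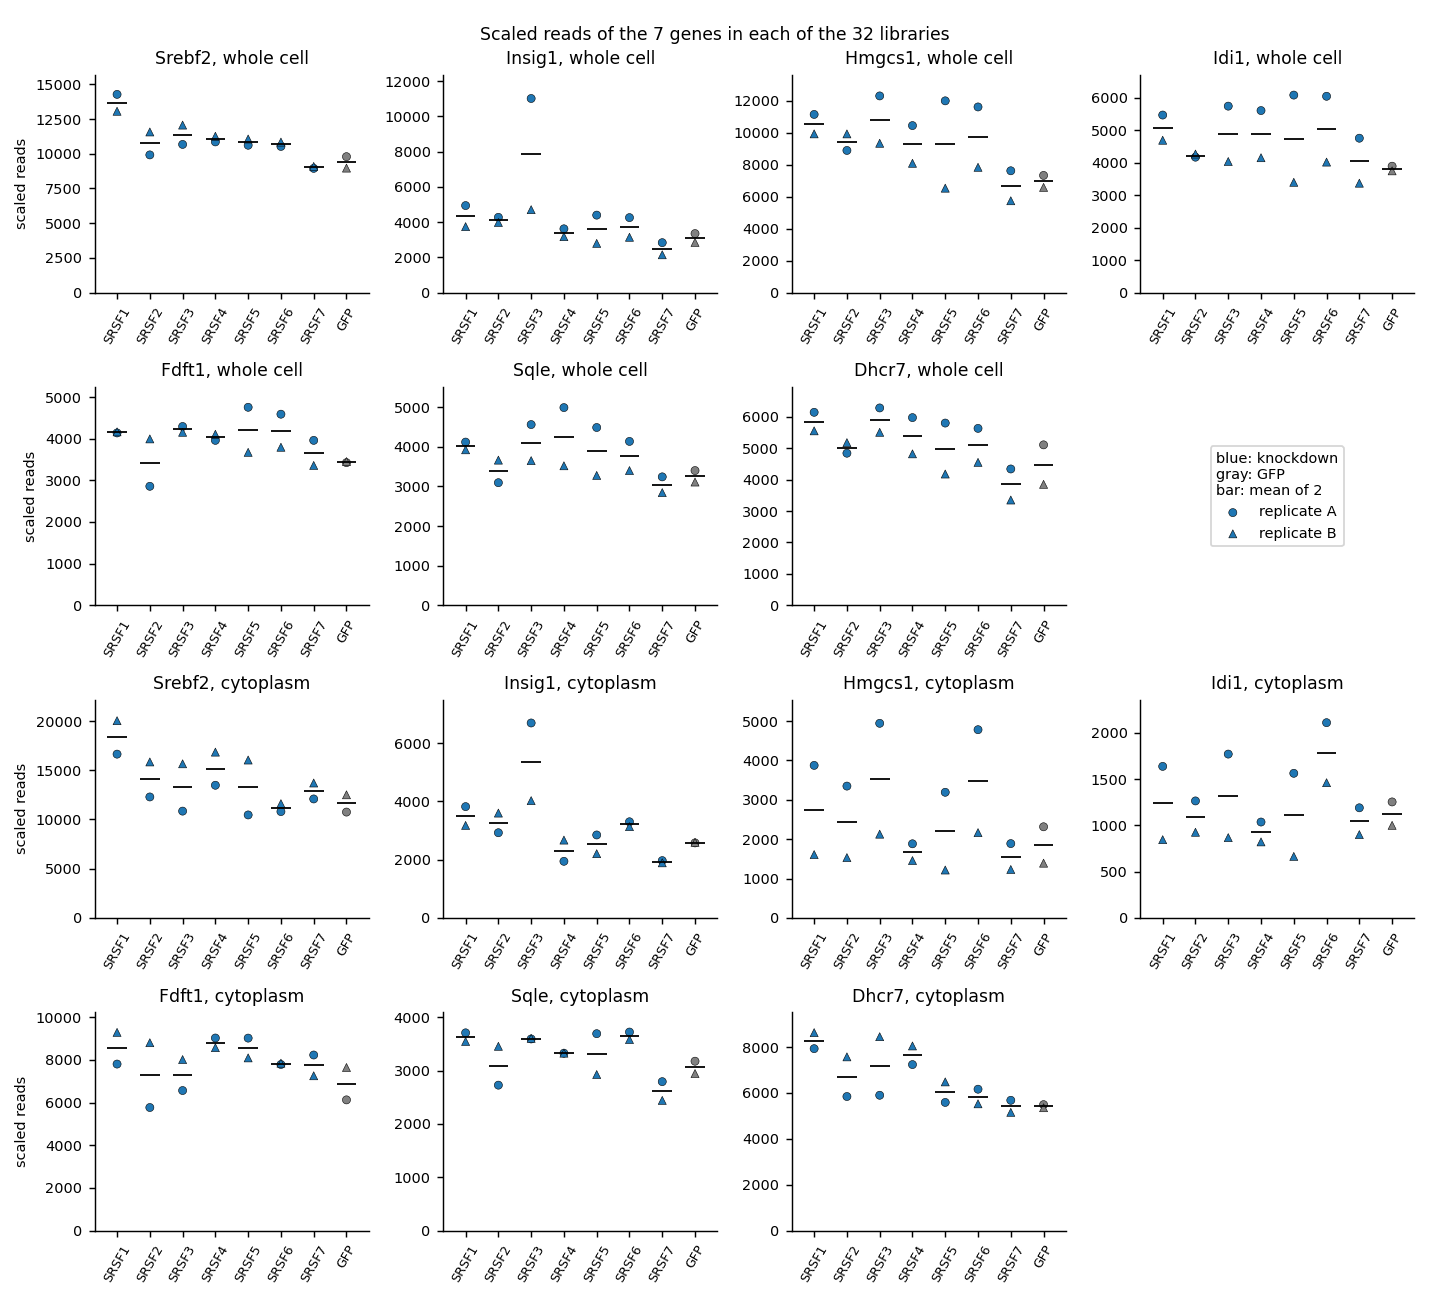
Scaled reads (vertical axes, each from 0) of the 7 genes in the whole cell (upper panels) and the cytoplasm (lower panels), for 7 knockdowns (blue) and GFP (gray). A circle is the A library, a triangle the B library and a line their mean. In the whole cell both SRSF1 and both SRSF3 libraries lay above both GFP libraries for all 7 genes, and the SRSF3 A library of Insig1 stood at 11012.

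In the whole cell, members were called only after SRSF1 and SRSF3 knockdown, and all of these calls were higher. After SRSF1 knockdown 3 of the 7 rose, Srebf2, Hmgcs1 and Dhcr7, where 4.61% of the 18540 genes tested rose. After SRSF3 knockdown 4 of the 7 rose, Insig1, Hmgcs1, Dhcr7 and Srebf2, where 16.1% of all genes rose. No member was called lower in these comparisons. The median log2 fold change of the 7 was 0.41 after SRSF1 and 0.32 after SRSF3 knockdown, beside medians of −0.003 for all genes in each comparison. Without the letter as a block, only Insig1 after SRSF3 (limma adjusted p = 0.0361) and Srebf2 after SRSF1 knockdown (0.0363) of these 7 calls passed.

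Srebf2 had the lowest adjusted p of the 7 genes after SRSF1 knockdown. The SRSF1 libraries held 14283 and 13068 scaled reads, against 9794 and 8972 in the GFP libraries. Means were 13676 ± 859 after SRSF1 knockdown and 9383 ± 581 with GFP (SD, n = 2 each). The groups did not overlap, and the log2 fold change was 0.54 (SE 0.09, limma adjusted p = 0.00145), with 0.54 within replicate A and 0.55 within replicate B. SRSF1 also led the order of the 8 groups by more than the larger SD of the 2 neighbours. The SRSF3 libraries came next, at 10677 and 12072 scaled reads, with a log2 fold change of 0.26 (SE 0.09, limma adjusted p = 0.0331). The SRSF2, SRSF4, SRSF5 and SRSF6 libraries of Srebf2 lay between 9921 and 11576 scaled reads and the SRSF7 libraries at 8950 and 9090. None of these 5 passed, with log2 fold changes of −0.05 to 0.24. Without SRSF1 replicate A the adjusted p of Srebf2 after SRSF1 knockdown was 0.0604, and for SRSF3 it was 0.234 without replicate B and 0.271 without GFP replicate B.

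Insig1 showed the largest change of the 7 genes, after SRSF3 knockdown. The SRSF3 libraries held 11012 and 4703 scaled reads, against 3346 and 2844 in the GFP libraries. Both SRSF3 libraries were above both GFP libraries, and replicate A was far higher than replicate B. The log2 fold change was 1.21 (SE 0.18, limma adjusted p = 0.000198). It was 1.70 within replicate A and 0.73 within replicate B, and the fit without the SRSF3 A library gave 0.78 (adjusted p = 0.00281). In the other knockdowns Insig1 lay between 2790 and 4936 scaled reads in SRSF1, SRSF2, SRSF4, SRSF5 and SRSF6 libraries and at 2832 and 2143 in SRSF7 libraries. The changes of 0.48 after SRSF1 and 0.42 after SRSF2 knockdown did not pass (limma adjusted p = 0.0947 and 0.173), nor did that of −0.32 after SRSF7 knockdown (adjusted p = 0.413).

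Hmgcs1, the first of the enzymes, rose after both SRSF1 and SRSF3 knockdown. Its SRSF1 libraries held 11142 and 9928 scaled reads, against 7327 and 6577 in the GFP libraries. The SRSF3 libraries held 12300 and 9340 scaled reads. All 4 were above both GFP libraries. The log2 fold changes were 0.60 after SRSF1 (SE 0.16, limma adjusted p = 0.0229) and 0.61 after SRSF3 knockdown (SE 0.16, limma adjusted p = 0.00714). Hmgcs1 stood at 8889 and 9926 in SRSF2, 10445 and 8087 in SRSF4, 11993 and 6531 in SRSF5, 11610 and 7835 in SRSF6 and 7617 and 5743 in SRSF7 libraries. In SRSF4, SRSF5 and SRSF6 cells the A library was well above the B library, and the changes of 0.35 to 0.46 did not pass. The SRSF1 call had an adjusted p of 0.0912, 0.17 and 0.176 without SRSF1 A, SRSF1 B and GFP A, and the SRSF3 call one of 0.0655 and 0.0937 without SRSF3 A and GFP A.

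Dhcr7, at the end of the pathway, rose after the same knockdowns, by a similar amount in each and by less than Hmgcs1. The SRSF1 libraries held 6148 and 5558 scaled reads and the SRSF3 libraries 6288 and 5511, against 5111 and 3852 in the GFP libraries. The log2 fold change was 0.40 in each (SE 0.11, limma adjusted p = 0.0283 after SRSF1 and 0.011 after SRSF3 knockdown). Both groups lay above both GFP libraries, which themselves differed by more than the SRSF1 libraries did. The other Dhcr7 libraries lay between 4182 and 5980 in SRSF2, SRSF4, SRSF5 and SRSF6 cells and at 4342 and 3353 in SRSF7 cells. The SRSF1 call of Dhcr7 was lost without any of its 4 libraries (adjusted p of 0.111 and 0.196 without SRSF1 A and B, 0.0543 and 0.167 without GFP A and B), and the SRSF3 call without SRSF3 B or GFP B (0.0676 and 0.099).

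Idi1, Fdft1 and Sqle, which act between these steps, were called in none of the 7 comparisons. Their libraries ranged from 3366 to 6076 (Idi1), 2857 to 4756 (Fdft1) and 2846 to 4994 scaled reads (Sqle) after knockdown, against 3888 and 3746, 3426 and 3452, and 3402 and 3113 with GFP. The lowest adjusted p-values by limma were 0.0946 for Idi1 after SRSF1, 0.134 for Fdft1 after SRSF3 and 0.0713 for Sqle after SRSF3 knockdown. The log2 fold change of Sqle was 0.32 there and larger after SRSF4 knockdown, at 0.37 (limma adjusted p = 0.457). The GFP libraries of Fdft1 differed by less than those of any other member, while its SRSF2 libraries stood at 2857 and 3997, on either side of GFP.

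**Figure D2:**
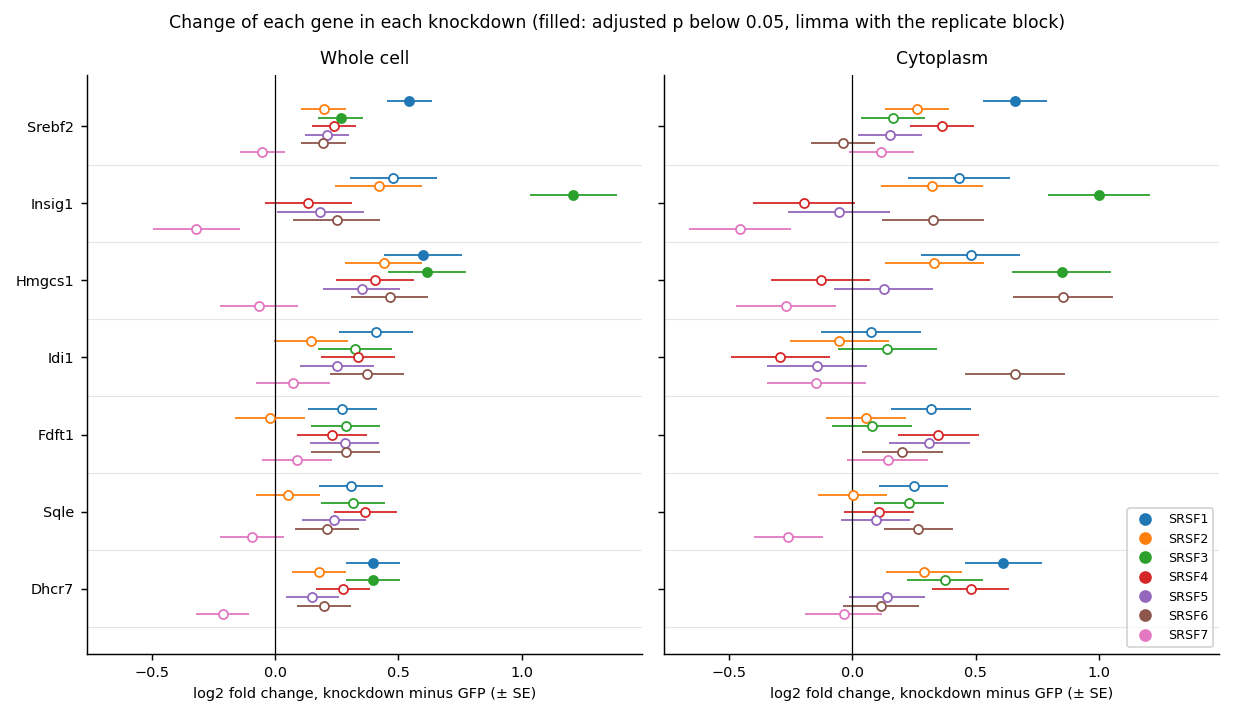
Log2 fold change of each gene, knockdown minus GFP (horizontal axes), with the SE of the limma fit as a line and filled points where the adjusted p was below 0.05. The filled points are SRSF1 (Srebf2, Hmgcs1, Dhcr7) and SRSF3 (Srebf2, Insig1, Hmgcs1, Dhcr7) in the whole cell, and Srebf2 and Dhcr7 (SRSF1) and Insig1 and Hmgcs1 (SRSF3) in the cytoplasm.

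The remaining whole-cell knockdowns gave no call among the 7 genes. Median log2 fold changes of the 7 were 0.18 (SRSF2), 0.28 (SRSF4), 0.24 (SRSF5), 0.25 (SRSF6) and −0.07 (SRSF7). The shares of all genes that limma called higher were 2.59% (SRSF2), 0.0% (SRSF4), 0.0% (SRSF5), 0.0108% (SRSF6) and 0.453% (SRSF7). At an unadjusted p below 0.05, limma gave 3 members for SRSF2, 5 for SRSF4, 2 for SRSF5, 3 for SRSF6 and 0 for SRSF7, where 21.8%, 9.06%, 6.26%, 8.8% and 15.2% of all genes reached that level. edgeR and DESeq2 called 0 members in each of these 5. Over all 49 tests of the whole cell limma called 7, edgeR 7 and DESeq2 6. The sign was positive in 43 of the 49 (49.4% to 51.1% of all genes, by knockdown), and the 6 negative ones were Fdft1 after SRSF2 knockdown and 5 genes after SRSF7 knockdown. Within replicate A and within replicate B the difference had the same sign in 39 of the 49.

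Read by library, the members separated from GFP to a degree that varied with the knockdown. Both knockdown libraries were above both GFP libraries for 7 of 7 members after SRSF1 (23.5% of all genes), 4 after SRSF2 (21.3%), 7 after SRSF3 (27.9%), 5 after SRSF4 (11.7%), 2 after SRSF5 (10.4%), 5 after SRSF6 (14.6%) and 0 after SRSF7 knockdown (17.8%). No member had both knockdown libraries below both GFP libraries, as 11.7% to 27.5% of all genes did. GFP had the lowest mean of the 8 groups for Idi1 and the second lowest for the 6 others, with SRSF2 below it for Fdft1 and SRSF7 below it for the other 5. Most neighbours in these orders did not differ beyond their spread. The gap between neighbouring means exceeded the larger SD for 2 of 7 gaps in Srebf2, 1 in Insig1 and 1 in Fdft1, and for none in the 4 others. These counts share the 2 GFP libraries, and the members were chosen with earlier results of these data known.

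In the cytoplasm the calls were fewer and all of them higher. After SRSF1 knockdown 2 of the 7 rose, Srebf2 and Dhcr7 (2.43% of the 17566 genes tested rose). After SRSF3 knockdown 2 of the 7 rose, Insig1 and Hmgcs1 (7.19% of all genes rose). The median log2 fold changes of the 7 were 0.43 and 0.23, beside −0.03 and −0.02 for all genes. None of the 4 calls passed without the letter as a block, where Insig1 after SRSF3 knockdown had the lowest limma adjusted p of the 4 (0.0934).

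Srebf2 had 16637 and 20036 scaled reads in the cytoplasm after SRSF1 knockdown, against 10750 and 12507 with GFP. The libraries did not overlap, and the log2 fold change was 0.66 (SE 0.13, limma adjusted p = 0.00816). Dhcr7 had 7928 and 8627 scaled reads after SRSF1 knockdown, against 5488 and 5353 with GFP, a log2 fold change of 0.61 (SE 0.15, limma adjusted p = 0.0306). Both genes thus rose after SRSF1 knockdown in either fraction. In the other knockdowns cytoplasmic Srebf2 ranged from 10459 to 16846 and cytoplasmic Dhcr7 from 5151 to 8450, and none passed. The adjusted p of Srebf2 was 0.0903 without SRSF1 A, 0.0645 without GFP A and 0.0964 without GFP B, and that of Dhcr7 lay between 0.119 and 0.216 without any 1 of its 4 libraries.

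Insig1 had 6690 and 4024 scaled reads in the cytoplasm after SRSF3 knockdown, against 2574 and 2592 with GFP. The log2 fold change was 1.00 (SE 0.21, limma adjusted p = 0.00593), and A was again above B. Hmgcs1 had 4945 and 2128 scaled reads after SRSF3 knockdown, against 2315 and 1390 with GFP. Here the B library of SRSF3 lay below the A library of GFP, so that the groups overlapped, and the log2 fold change of 0.85 (SE 0.20, limma adjusted p = 0.0124) rests on the difference within each letter (1.07 within A, 0.63 within B). After SRSF6 knockdown Hmgcs1 had 4783 and 2167 scaled reads and the same log2 fold change of 0.85 (SE 0.20). Its unadjusted p of 0.000657 was close to the 0.00069 of SRSF3, but its adjusted p was 0.142, since 6 genes rose and 10 fell after SRSF6 knockdown, and 1263 rose and 1187 fell after SRSF3 knockdown. DESeq2 called this change of Hmgcs1 (adjusted p = 0.00995), while limma and edgeR did not. Without SRSF3 A or GFP A the SRSF3 calls were lost for both Insig1 (adjusted p of 0.133 and 0.095) and Hmgcs1 (0.147 and 0.175).

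No member was called in the cytoplasm after the other 5 knockdowns. The shares of all genes called higher were 0.769% (SRSF2), 0.0% (SRSF4), 0.0% (SRSF5), 0.0342% (SRSF6) and 0.0398% (SRSF7). At an unadjusted p below 0.05, limma gave 0, 3, 0, 2 and 1 members in these 5 comparisons, where 18.3%, 17.1%, 5.13%, 14.9% and 11% of all genes reached that level. The 2 for SRSF6 were Hmgcs1 and Idi1. Idi1 had 2110 and 1461 scaled reads after SRSF6 knockdown, against 1253 and 1000 with GFP. Its log2 fold change was 0.66 (SE 0.20, limma adjusted p = 0.204). By adjusted p, edgeR called 0 members in each of the 5 comparisons, and DESeq2 called 0 in each except Hmgcs1 after SRSF6 knockdown. Over all 49 tests limma called 4, edgeR 4 and DESeq2 5, and 37 of the 49 changes were positive (45.8% to 51.3% of all genes, by knockdown). Both knockdown libraries lay above both GFP libraries for 5 members after SRSF1 (18.7% of all genes), 2 after SRSF2 (16.7%), 3 after SRSF3 (20.6%), 4 after SRSF4 (19.8%), 2 after SRSF5 (12.2%), 4 after SRSF6 (18.0%) and 0 after SRSF7 knockdown (16.8%). Both SRSF7 libraries lay below both GFP libraries for Insig1 (1966 and 1889, against 2574 and 2592) and Sqle (2792 and 2440, against 3175 and 2944), which 18.4% of all genes did. Neither of these 2 changes passed, at −0.45 (SE 0.21, limma adjusted p = 0.444) and −0.26 (SE 0.14, adjusted p = 0.519).

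The study asked which transcripts lose cytoplasmic level relative to the whole cell when an SR protein is limiting. For the 7 genes this was tested as the difference between the cytoplasmic and the whole-cell fold change. No member was called in any of the 7 comparisons by limma, edgeR or DESeq2, and 1 of the 49 tests had an unadjusted p below 0.05 by limma, where 1.59% to 7.96% of all genes did, by knockdown. Over all genes limma called 0.0313% for SRSF1, 0.584% for SRSF3 and 0.0% for each of the other 5 knockdowns. The exception at the unadjusted level was Idi1 after SRSF4 knockdown. Its cytoplasmic libraries held 1036 and 821 scaled reads, against 1253 and 1000 with GFP, and its whole-cell libraries 5600 and 4149, against 3888 and 3746. The difference of log2 fold changes was −0.66 (SE 0.28, limma adjusted p = 0.673). For the members called in a fraction the differences were each smaller than their SE. They ran from −0.24 (SE 0.31) for Insig1 to 0.20 (SE 0.29) for Hmgcs1, both after SRSF3 knockdown. Nearest to their SE were Dhcr7 after SRSF1 (0.18, SE 0.19) and Srebf2 after SRSF3 knockdown (−0.13, SE 0.16). Srebf2 after SRSF1 knockdown stood at 0.08 (SE 0.16) and Dhcr7 after SRSF3 knockdown at −0.05 (SE 0.19).

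The members differed from each other in how their level split between the fractions. In the authors' FPKM of GFP cells, which are per length and combine both replicates, the whole-cell order was Dhcr7 (101.4), Hmgcs1 (72.1), Srebf2 (61.7), Idi1 (44.6), Fdft1 (40.7), Sqle (39.5) and Insig1 (39.0). In the cytoplasm the order of FPKM was Dhcr7 (75.0), Fdft1 (74.1), Srebf2 (69.5), Sqle (34.2), Insig1 (29.6), Hmgcs1 (17.5) and Idi1 (11.5). Hmgcs1 thus stood second in the whole cell and next to last in the cytoplasm. The ratio of cytoplasmic to whole-cell FPKM over the 8 groups was 0.164 to 0.325 for Hmgcs1 and 0.167 to 0.315 for Idi1. It was 0.618 to 0.791 for Insig1, 0.718 to 0.889 for Sqle, 0.716 to 0.979 for Dhcr7 and 0.953 to 1.30 for Srebf2, and 1.57 to 1.98 for Fdft1. The ranges of Hmgcs1 and Idi1 overlapped none of the 5 other genes in any group, as did that of Fdft1 at the upper end. The fractions were scaled apart, so a ratio serves to order the genes and its absolute size has no meaning.

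The genes with the lowest ratio were also those with the widest gap between replicates in the cytoplasm. Cytoplasmic Hmgcs1 was higher in A than in B in 8 of 8 groups, with ratios of A over B of 1.29 to 2.62. In the SRSF2 cells, for example, it stood at 3349 in A and 1532 in B, and with GFP at 2315 and 1390. Cytoplasmic Idi1 behaved alike, with ratios of 1.25 to 2.35 in 8 of 8 groups. Srebf2 went the other way in the cytoplasm, with ratios of 0.652 to 0.931 and A below B in 8 of 8 groups. The liver and pancreas markers were also high in the cytoplasmic A libraries, except in that of SRSF2, where their sums were 3.87 and 18.1 scaled reads. Whether these markers and the gaps between replicates are linked was not tested. In the whole cell, Insig1 was higher in A in 8 of 8 groups (ratios of 1.07 to 2.34). The fits carried the letter as a block, and the calls without it are given under the processing alternatives.

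**Figure D3:**
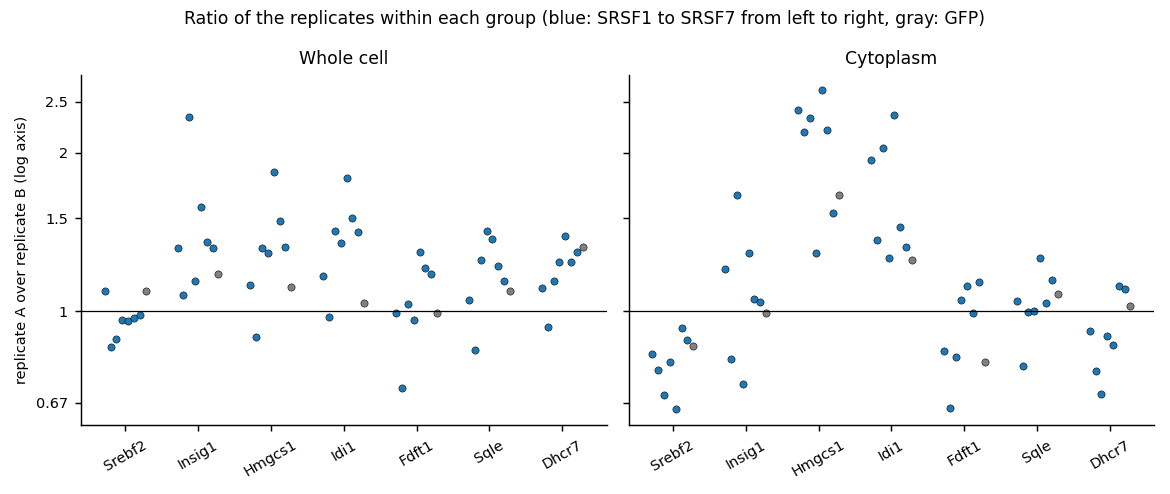
Ratio of scaled reads in replicate A to replicate B (log axis) for each gene and group, with the 7 knockdowns in blue and GFP in gray. Cytoplasmic Hmgcs1 and Idi1 lay above 1 in 8 of 8 groups and cytoplasmic Srebf2 below 1 in 8 of 8.

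SR proteins act on splicing and on 3′ ends, so the exon bins of the 7 genes were compared in the same way. Of their 107 bins, 92 in the whole cell and 86 in the cytoplasm had a mean of at least 5 reads and were tested with limma diffSplice for their use within the gene. In the whole cell no member bin was called, 24 of 644 tests had an unadjusted p below 0.05, and edgeR called 0. Among all 181257 bins the called shares were 0.402% (SRSF1), 0.184% (SRSF2), 0.966% (SRSF3), 0.0% (SRSF4 and SRSF5), 0.0149% (SRSF6) and 0.132% (SRSF7). In the cytoplasm 1 of 602 tests was called and 14 had an unadjusted p below 0.05. The shares among all 150291 bins were 0.278%, 0.117%, 1.11%, 0.00266%, 0.0%, 0.00466% and 0.0399% for SRSF1 to SRSF7 in turn.

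The bin that was called is the last bin of Hmgcs1 (mm10, chr13:119706389-119708086, plus strand), which was used less in the cytoplasm after SRSF3 knockdown. It took 39.9% (95% Wilson interval 38.7 to 41.2) and 38.1% (36.5 to 39.7) of the gene's bin reads in the SRSF3 libraries, against 52.6% (50.6 to 54.5) and 52.2% (49.8 to 54.5) in the GFP libraries. The intervals cover counting error only. The groups did not overlap, and the 14 cytoplasmic libraries of the other knockdowns and GFP lay between 46.3% and 54.8%. The log2 change in use was −0.82 (SE 0.23, limma diffSplice adjusted p = 0.0476). In the whole cell the shares were 39.8% and 40.7% in the SRSF3 libraries, against 40.3% and 45.5% in the GFP libraries, and the bin was not called there. The call of this Hmgcs1 bin was close to the threshold. It was lost without any 1 of its 4 libraries (adjusted p of 0.18, 0.568, 0.835 and 0.426 without SRSF3 A, SRSF3 B, GFP A and GFP B), without the block, with a minimum mean of 20 reads (0.0605), and in edgeR (log2 change −0.42, adjusted p = 0.799). The bin that edgeR called in its place was one of Idi1 (chr13:8887923-8888053) after SRSF3 knockdown, at 1.57 (adjusted p = 0.0364), for which limma gave 1.34 (SE 0.44, adjusted p = 0.174).

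The last bin of Srebf2 (mm10, chr15:82203697-82205376) had a lower share in the same libraries but did not pass. Its share in the cytoplasm was 23.4% and 24.3% in SRSF3 libraries, against 30.5% and 30.9% in GFP libraries. SRSF1 libraries stood at 27.7% and 29.9% and SRSF7 libraries at 33.3% and 33.6%. The SRSF3 libraries were the lowest of the 16 and the SRSF7 libraries the highest, and the log2 change for SRSF3 was −0.49 (SE 0.15, limma diffSplice adjusted p = 0.105). In the whole cell all 16 libraries lay between 19.4% and 22.2%.

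**Figure D4:**
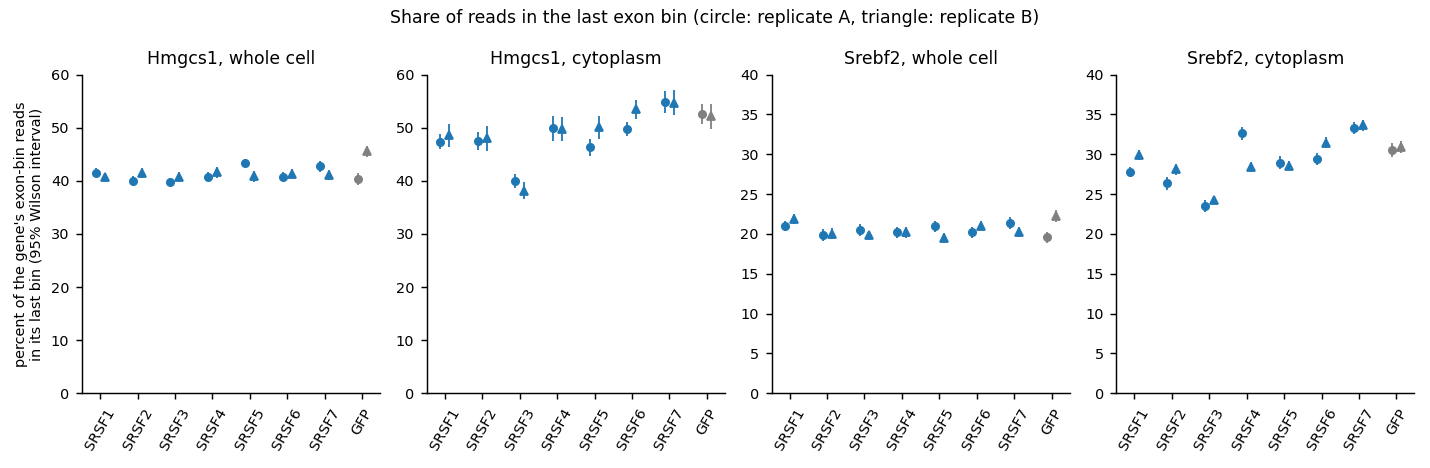
Percent of each gene's exon-bin reads in its last bin (vertical axes from 0, 95% Wilson intervals as lines) for Hmgcs1 and Srebf2, with knockdowns in blue and GFP in gray, circles for A and triangles for B. In the cytoplasm the SRSF3 libraries stood lowest, at 39.9% and 38.1% for Hmgcs1 and 23.4% and 24.3% for Srebf2.

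The authors' own isoform estimates, made with MISO on pooled replicates and given here as percent with their intervals, also covered the 3′ end of Srebf2. A first event asks whether the 3′ UTR is extended, from a core (mm9, chr15:82034347-82035108) into the bases that follow (mm9, chr15:82035109-82035809). The extended form made up 90% (87 to 92) in SRSF1 and 65% (62 to 68) in SRSF3 whole cells, against 80% (76 to 83) in GFP cells. In the cytoplasm it made up 98% (96 to 100) in SRSF1, 75% (73 to 77) in SRSF3 and 96% (94 to 98) in SRSF7 cells, against 93% (91 to 95) in GFP cells. In these pooled estimates SRSF1 and SRSF3 thus stood on opposite sides of GFP in both fractions, with intervals apart from that of GFP. The other knockdowns lay between 77% and 83% in the whole cell and between 90% and 93% in the cytoplasm apart from SRSF7. A second event asks which last exon is used, the distal one (starting at mm9, chr15:82034127) or an early end. The distal last exon made up 76% (75 to 77) in SRSF1 and 65% (64 to 66) in SRSF3 whole cells, against 71% (70 to 72) in GFP cells. The same order held in the cytoplasm, at 76% (76 to 77) and 65% (64 to 66), against 72% (71 to 73). Cytoplasmic SRSF7 cells also stood above GFP, at 75% (74 to 76). The remaining knockdowns lay at 72% to 73% in the cytoplasm, and all but SRSF1 and SRSF3 at 71% to 73% in the whole cell. These estimates come from pooled reads, so they have no replicate check of their own and their intervals do not hold the spread between libraries. The last-bin share of Srebf2, read per library, did not set SRSF1 and SRSF3 on opposite sides of GFP in either fraction. In the cytoplasm the SRSF1 libraries (27.7% and 29.9%) lay below the GFP libraries (30.5% and 30.9%), as the SRSF3 libraries did. In the whole cell the SRSF1 and SRSF3 libraries all lay between the GFP libraries. That share is taken over all bins of the gene, and why it differs from the MISO estimates was not tested.

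**Figure D5:**
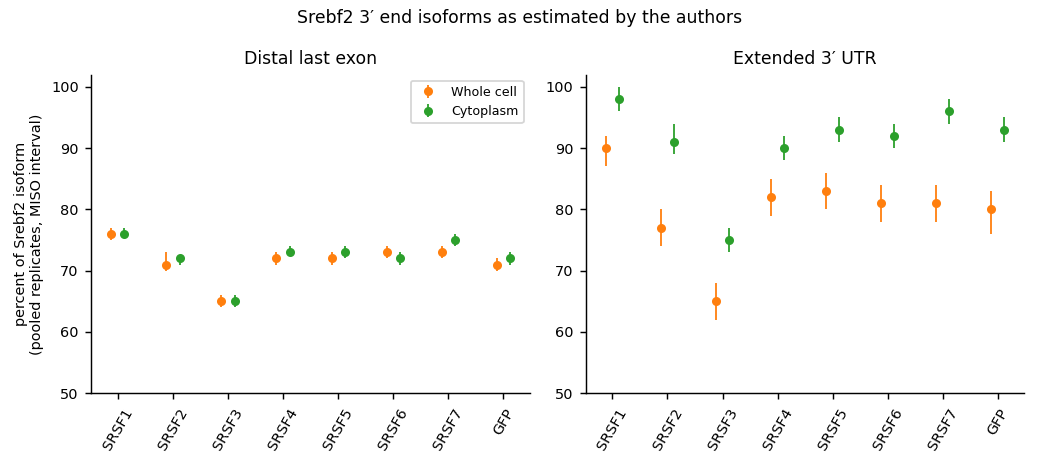
The authors' MISO estimates for Srebf2 as percent of an isoform (vertical axes from 50), with their intervals as lines, for the distal last exon and the extended 3′ UTR, in the whole cell (orange) and the cytoplasm (green). SRSF1 was above GFP and SRSF3 below it in both panels and both fractions, at 98% and 75% against 93% for the extended 3′ UTR in the cytoplasm.

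Among the other members, the last bin of Insig1 was also lowest in the cytoplasmic SRSF3 libraries. It took 67.7% and 67.8% there, against 75.1% and 73.7% with GFP. The last bin of Idi1 changed by −0.77 in the cytoplasm after SRSF3 knockdown (SE 0.26, limma diffSplice adjusted p = 0.186). Neither bin was called. The last bin of Fdft1 stood at 37.6% and 37.5% in these SRSF3 libraries, against 37.6% and 37.8% with GFP. Fdft1, the remaining member with a MISO event, had an extended 3′ UTR in 7% (4 to 9) in SRSF2 whole cells, against 3% (2 to 5) in GFP cells, and in 1% to 2% in all cytoplasmic groups. In the authors' transcript FPKM, Srebf2, Insig1, Hmgcs1 and Fdft1 each had 1 transcript. The main one of Dhcr7, of 10 listed, took between 46.6% (SRSF2) and 57.0% (SRSF3) of the gene's FPKM after knockdown, against 47.9% with GFP in the whole cell, and between 71.9% (SRSF1) and 91.8% (SRSF7), against 82.8% with GFP in the cytoplasm. The main transcripts of Idi1 and Sqle stayed at or above 91.6% and 93.0% in every group.

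The rest of the pathway was read from 5 lists, of which 65 genes were tested in the whole cell and 66 in the cytoplasm. After SRSF3 knockdown 15 of the 65 were called higher and 11 lower in the whole cell, where 16.1% of all genes rose and 17.0% fell. After SRSF1 knockdown 7 were called higher and 2 lower, after SRSF2 knockdown 1 higher and 3 lower, and after SRSF7 knockdown 1 lower, where 4.61% and 6.32%, 2.59% and 3.41%, and 0.453% and 0.636% of all genes rose and fell. The other 17 cholesterol synthesis enzymes held 9 of the 15 that rose after SRSF3 knockdown, against 2 that fell, with a median log2 fold change of 0.35 beside −0.003 for all genes. In the cytoplasm 6 of these 17 rose after SRSF3 knockdown and none fell, and their median was 0.09 beside −0.02. After SRSF1 knockdown 2 of the 17 rose and 1 fell in each fraction, with medians of 0.04 in the whole cell and 0.01 in the cytoplasm, and after SRSF2 knockdown none rose and 2 fell in the whole cell, with a median of −0.05. Of 12 genes of SREBP processing and sterol sensing, 1 was higher and 4 lower in the whole cell after SRSF3 knockdown, with a median of −0.01. Named here after their values were seen, Scap, the SREBP escort, stood at 0.67, and those lower included Insig2 (−0.47), the ligase Rnf139 (−0.42) and the SREBP protease Mbtps2 (−0.41). Uptake and transport gave 3 higher and 2 lower of 12, LXR targets 1 and 1 of 10, and fatty acid synthesis 1 and 2 of 14. None of the 66 was called in the difference between fractions by limma. The P19 markers moved after SRSF3 knockdown too, with 5 of 10 called lower in the whole cell (median −0.33), and their part in these counts was not tested.

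Msmo1, a C4 demethylation enzyme, rose in both fractions after SRSF1 knockdown (log2 fold changes of 0.51 in the whole cell and 0.58 in the cytoplasm, limma adjusted p = 0.0396 and 0.0357) and after SRSF3 knockdown (0.65 and 0.64, adjusted p = 0.00393 and 0.012). Hsd17b7 rose by 0.76 in the whole cell and 1.12 in the cytoplasm after SRSF3 knockdown and Nsdhl by 0.76 in the whole cell. The SRSF3 A library of Hsd17b7 stood far above its B library, with 1213 and 538 scaled reads in the whole cell, against 547 and 411 with GFP, and 497 and 186 in the cytoplasm, against 172 and 112. The differences of Hsd17b7 were 1.13 within A and 0.39 within B in the whole cell, and 0.74 within B in the cytoplasm. Not all enzymes moved up. Pmvk, phosphomevalonate kinase, fell after SRSF1 knockdown by 0.56 in the whole cell and 0.46 in the cytoplasm. Tm7sf2, a sterol reductase, fell by 0.60 and 0.57 in the whole cell after SRSF2 and SRSF7 knockdown. Srebf1, the paralogue of Srebf2, was not called in any comparison, with −0.06 after SRSF1 and −0.04 after SRSF3 knockdown in the whole cell. Rnf145, a ubiquitin ligase of the sterol response, rose after SRSF1 knockdown in both fractions (0.68 and 0.87) and in the cytoplasm after SRSF3 knockdown (0.57). Fasn, fatty acid synthase, rose by 0.63 in the whole cell after each of these knockdowns, with 0.34 within A and 0.93 within B after SRSF3 knockdown. Cyp46a1, which hydroxylates cholesterol in neurons, fell by 1.44 after SRSF2 and by 0.87 after SRSF3 knockdown in the whole cell. It fell by 1.26 in the cytoplasm after SRSF2 knockdown, where the difference was −1.92 within A and −0.60 within B. Its level was low. In the whole cell it had 25.9 and 43.6 scaled reads after SRSF2 and 47.1 and 55.2 after SRSF3 knockdown, against 93.0 and 93.7 with GFP. In the cytoplasm it had 20.6 and 63.9 after SRSF2 knockdown, against 79.3 and 98.6 with GFP. After SRSF3 knockdown Soat1, which esterifies cholesterol, rose by 0.51 in the cytoplasm and by 0.40 in the whole cell (0.54 within A, 0.25 within B). Erlin1 fell by 0.76 in the cytoplasm after SRSF3 knockdown.

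The 7 genes did not move as a single block over the libraries. With log2 values centred within each fraction and letter, the correlation over the 32 libraries ran from −0.09 to 0.84 over the 21 pairs of members, with a median of 0.50. The libraries share groups, depth and batch of letters, and the value is a description. Among the 11333 genes with a mean of at least 100 scaled reads in both fractions, those most like Sqle included Msmo1 (0.86), followed by Mest, Rrm2 and Scd2 (0.82 to 0.81). Dhcr7 was most like Rdh11 (0.90), and its list ended with Srebf2 (0.84). For Fdft1 the list held Pop1 (0.81), Aacs and Acat2 (0.77 each), besides 2 entries of uncertain standing, the pseudogene Pgam1-ps2 and the unnamed ENSMUSG00000094234. Insig1 was most like Atg14 and Tbcel (0.94 each), followed by Fmo1, Arfgap3 and E430025E21Rik. Hmgcs1 was most like Bach1 and Jade3 (0.90 each), followed by Golph3l, Rraga and Mettl9. Srebf2 was most like Zfp335 and Trmt44 (0.87 each), followed by Gga2, Mark2 and Tonsl, and Idi1 like G2e3 and Gnl3 (0.85 each), followed by Cbfb, Plaa and Gm15387. Apart from Msmo1, Scd2, Aacs, Acat2 and Srebf2, none of the genes named here was on the lists or among the 7.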

How the data were processed

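Poly(A)+ RNA of P19 cells was compared between each of 7 SR protein knockdowns and GFP, in 2 fractions with 2 replicates. Per the labels, the tools of the authors included Cufflinks 2.1.1, Bowtie2 2.1.0, TopHat2 (2.0.9, 2.0.10), CASAVA 1.8.2 and cutadapt, with mm9 and mm10, and the roles are not given there. The gene tables deposited by the authors hold a signal per library, estimated reads scaled to a common depth, and their tables of exon bins give a signal too, reads divided by a factor per library. The authors' FPKM values and MISO isoform fractions (printed as percent) combine replicates. The authors' comparison columns (Cuffdiff and DEXSeq fold changes and p-values, MISO Bayes factors) were not used.

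Genes were tested with limma 3.58.1 (R 4.3.3) on log2(value + 1) after TMM scaling with edgeR 4.0.16 and filterByExpr, all 16 libraries of a fraction in 1 fit, with the letter as block. The difference between fractions used all 32 libraries. Exon bins (mean of at least 5) were tested with voom and diffSplice. Division by the smallest step returned whole reads, within 0.1, for 97.9% to 98.6% of low gene values, and within 0.01 for 100.0% of bin values. On these reads edgeR called 844 genes higher and 1091 lower for SRSF1 and 3037 and 3015 for SRSF3 in the whole cell, and 467 and 553, and 1450 and 1086, in the cytoplasm, and DESeq2 1.42.0 was run beside it. Genes at exactly 0 in a library where their bins held at least 100 reads, and with a median of at least 100 or no other library, were left out as failed estimates (182 in the whole cell, 177 in the cytoplasm, 0 members). The letters were taken as pairing because the A minus B differences correlated between every 2 groups (Spearman 0.238 to 0.814 in the whole cell, 0.449 to 0.827 in the cytoplasm, 28 pairs), and the labels give only the letters.

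All 7 members were named. From the lists, Srebf1 was named always, with up to 8 further genes per fraction that passed in the most comparisons (ties by the larger median absolute change), and from all genes the 5 most correlated with each member. Some genes that this rule names are not reported here. The members and lists were chosen with earlier results of these data known. The scripts were tested on simulated data with 200 changed genes or bins. Alternatives were the block, pseudocount, filter, scaling, tool, libraries in the fit and each replicate left out.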

Additional observations from a re-analysis of the deposited data

Results flagged for a closer look

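After TMM scaling, Idi1 lay above GFP in the whole cell and below it in the cytoplasm after SRSF2 and SRSF4 knockdown. This held within A and within B. For SRSF2 the cytoplasmic differences were small, at −0.01 within A and −0.09 within B (log2 fold change −0.05, SE 0.20). Their sign was not stable, since the fold change was 0.07 without SRSF2 A and 0.14 without GFP B. Before TMM scaling Idi1 had 4166 and 4263 scaled reads after SRSF2 knockdown in the whole cell, against 3888 and 3746 with GFP. In the cytoplasm it had 1264 and 926, against 1253 and 1000, so A was slightly above GFP A. The difference of log2 fold changes, cytoplasm minus whole cell, was −0.21 (SE 0.28, limma adjusted p = 1.00), and after SRSF4 knockdown it was −0.66 (SE 0.28, limma adjusted p = 0.673), so neither passed.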

How the results depend on the processing

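No member called, under any alternative or in the fit reported, changed direction. Changes that were not called did so in 3 of 1176 values under the alternatives other than leaving out a library and in 100 of 784 values without a library, where they were at most 0.02 and 0.25 in size in the fit reported. Without the replicate block the members called fell to 2 in the whole cell (from 7), 1 each for SRSF1 and SRSF3, and to 0 in the cytoplasm (from 4), 0 each for SRSF1 and SRSF3, and the called cytoplasmic exon bin was lost (0), as it was with a minimum mean of 20 reads (0). The calls of Insig1 after SRSF3 and of Srebf2 after SRSF1 knockdown in the whole cell passed under all 8 alternatives other than leaving out a library. With no filter on low values, 4 members were called in the whole cell, 1 for SRSF1, and 1 in the cytoplasm for SRSF1. With only the 4 libraries of a comparison in the fit, 14 were called in the whole cell (7 for SRSF1, 2 each for SRSF2, SRSF3 and SRSF6, 1 for SRSF7) and 12 in the cytoplasm (5 for SRSF1, 4 for SRSF6, 1 for SRSF7). The share of all genes called in these smaller fits is not given here, so their counts are not read as a result about the members. DESeq2 called 1 cytoplasmic member for SRSF6. The pseudocount of 10, DESeq2 size factors, values as deposited and edgeR left each of these counts of called members within 1.5 times. Leaving out a library left 1 library in its group. Every call but that of Insig1 after SRSF3 knockdown in the whole cell was lost without at least 1 of its libraries. Over all alternatives the log2 fold change of that Insig1 call lay between 0.78 and 1.63. Without SRSF2 replicate B, further cytoplasmic member bins passed for SRSF2. Calls among all bins rose there too, so these bins are not read as a result about the members.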
